A study of Homo sapiens with 6 samples.

Results

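The 43 genes described here code for proteins of DNA damage signalling and repair, and they were taken as a named list of checkpoint, homologous recombination, Fanconi anaemia, mismatch repair and single-strand break repair genes. Their symbols were matched to the Ensembl identifiers of the deposited count table, and all 43 were found among its 62438 genes. The study silenced N6AMT1, a methyltransferase reported to place the 6mA mark on adenines in DNA, in a breast cancer line that the labels name MDA-MB-453, and asked which transcripts changed. All 6 RNA-seq libraries came from cells that received an siRNA at 10 nM with a lipid reagent (Lipofectamine RNAiMAX) for 48 h. In 3 libraries the siRNA targeted N6AMT1 (si-N6AMT1), and in the other 3 it was a scrambled sequence (si-CN). The knockdown was transient, in one cell line, and no cell without siRNA was included here. The labels call the cells triplicates without saying whether they were separate cultures, so p-values measure only the spread between these libraries, which may be technical.

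A cell meets a DNA break in stages. ATM and ATR are kinases that sense broken or single-stranded DNA and activate CHEK2 and CHEK1, which hold the cell cycle. The complex of MRE11, RAD50 and NBN binds the break and, with RBBP8, EXO1, DNA2 and BLM, trims one strand. BRCA1, BARD1, PALB2, BRCA2 and their partners then guide the strand to an intact copy, while the Fanconi anaemia proteins deal with strands that are cross-linked to each other. Mismatch repair and PARP1 with XRCC1 handle wrong bases and single-strand breaks. Many of these genes are transcribed mostly while a cell copies its DNA, and inherited faults in several of them predispose to breast cancer.

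Library totals were 19739247 to 21289740 counts. The targeted gene was checked first. N6AMT1 was at 3.08, 3.53 and 2.93 CPM (counts scaled to library size by TMM) in si-N6AMT1 replicates 1, 2 and 3 and at 6.93, 6.86 and 6.65 CPM in si-CN. The groups did not overlap, and N6AMT1 fell by 1.10 on the log2 scale (SE 0.119, FDR = 3.65e-07), which left 46.7% of the control level. These are low values, from 60 to 141 counts a library. The labelled line is known as luminal, but the libraries held 1 to 6 counts of SPDEF and 8 to 14 of KRT19, which are luminal genes. Other luminal or epithelial genes were present, with KRT8 at 11822 to 13427 counts, KRT18 at 9121 to 10011, EPCAM at 5751 to 6763, XBP1 at 1516 to 1651, ERBB2 at 1046 to 1151, FOXA1 at 151 to 183 and GATA3 at 48 to 75. The 5 basal genes listed were abundant in every library. KRT17 had 55464 to 59864 counts, EGFR 22157 to 24652 and KRT5 15009 to 17114. TP63 had 4048 to 4690 and KRT14 2064 to 2621, so the markers go in part against the label. Some of these markers moved with the knockdown. TP63 (log2 fold change 0.14, FDR = 0.000154), KRT14 (0.18, FDR = 0.000215), KRT5 (0.11, FDR = 0.000522), KRT8 (0.12, FDR = 0.000126) and KRT18 (0.08, FDR = 0.0150) were higher and EPCAM (-0.12, FDR = 0.000794) was lower. The 5 basal markers held 0.517 to 0.524% of counts in si-N6AMT1 and 0.504 to 0.508% in si-CN, without overlap. The luminal markers listed were higher too, at 0.157 to 0.158% against 0.15 to 0.153%, also without overlap. The part of either list in the members' values was not tested. Of 10 stromal, endothelial and immune markers, 9 were matched in the count table and 1 passed the filter on low counts, COL1A1 at 874 to 978 counts.

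The repair genes changed little and in both directions. All 43 passed the filter on low counts, and log2 fold changes of si-N6AMT1 against si-CN ran from -0.26 to 0.18. With edgeR's quasi-likelihood test and a false discovery rate (FDR) of 0.05 over all 17320 genes tested, 9 members were lower, 3 were higher and 31 were not called. The 9 lower members were PARP1, EXO1, BRIP1, BARD1, BRCA1, TOPBP1, RAD54B, FANCG and RAD50, and the 3 higher were NBN, CHEK2 and RBBP8. Among all genes tested, 11.5% were called lower and 9.78% higher, against 20.9% and 6.98% of the members. Genes in the members' own range of expression (3.36 to 259 CPM, 11606 genes) were called lower in 15.3% and higher in 12.5%. Counts for the shorter lists below are to be read beside these shares, and no list was tested against them. The median member was at -0.03 and the median gene at 0.00. Members with all 3 si-N6AMT1 libraries under all 3 si-CN libraries numbered 13, beside 18.0% of all genes, and 4 members had all 3 above, beside 16.8%. The summed share of all counts held by the 43 genes was 0.220 to 0.222% in si-N6AMT1 and 0.229 to 0.232% in si-CN, without overlap. Such a sum is weighted towards abundant members and is not a fall shared by all of them. The mismatch and single-strand break repair genes, PARP1 among them, held 0.0411 to 0.0426% in si-N6AMT1 and 0.0461 to 0.0467% in si-CN. For break recognition and end resection the ranges overlapped (0.0441 to 0.0458% and 0.045 to 0.0467%). In bulk RNA, fewer cells that express a gene and less RNA per cell cannot be told apart.

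**Figure D1:**
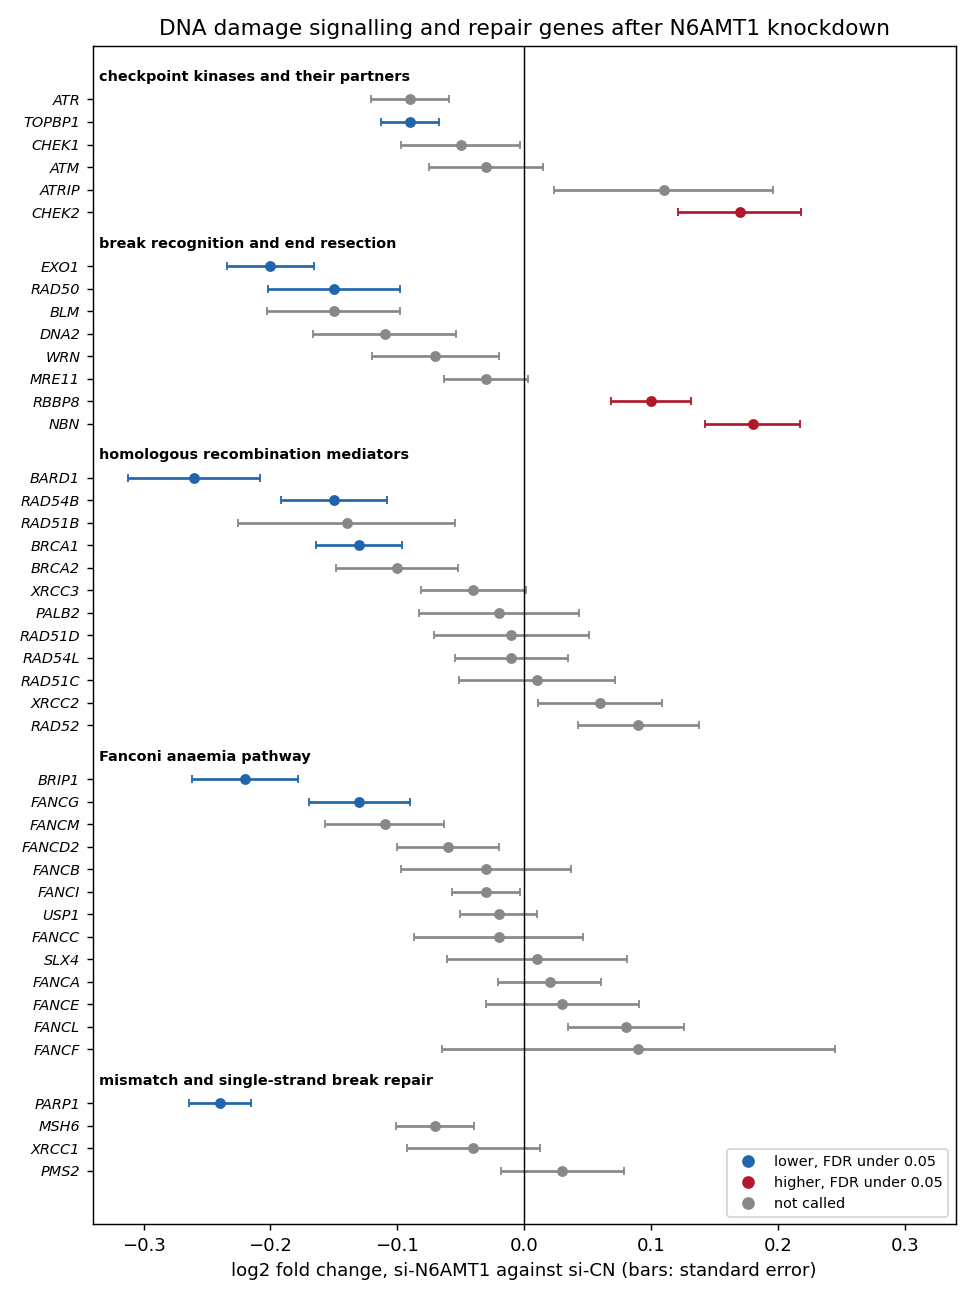
Log2 fold change of si-N6AMT1 against si-CN (x axis) for each of the 43 members, grouped by role, with bars for the standard error. Blue points are the 9 members called lower, red points the 3 called higher and grey points the 31 not called, and the points run from BARD1 at -0.26 to NBN at 0.18.

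In the control cells the members differed far more from each other than from their own values after knockdown. On a per-length scale (TPM estimated from the counts and one reference transcript per gene), PARP1, which marks strand breaks with poly(ADP-ribose), was highest at 157 TPM (SD 1.36, n = 3). TOPBP1, the activator of ATR, followed at 94.2 TPM and MSH6, a mismatch-binding protein, at 67.0 TPM. The median member was at 22.7 TPM. At the low end stood BRCA2 (5.43 TPM), ATRIP (5.37 TPM), SLX4 (4.83 TPM), RAD51D (4.42 TPM) and FANCF (2.20 TPM). In 17 of the 42 steps of this order the lowest control value of the higher gene was above the highest of the next one, and in 25 the ranges overlapped, among them BRCA2 with ATRIP and SLX4 with RAD51D. The members called lower ran from PARP1 down to BARD1. Of all called members, only BRIP1 (12.4 TPM) and BARD1 (10.9 TPM) lay under the median, and no member ranked below BARD1 was called. Members with few counts had wider standard errors of the log2 fold change, such as 0.155 for FANCF and 0.0864 for ATRIP against 0.023 for TOPBP1. Small changes in them were therefore harder to call.

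**Figure D2:**
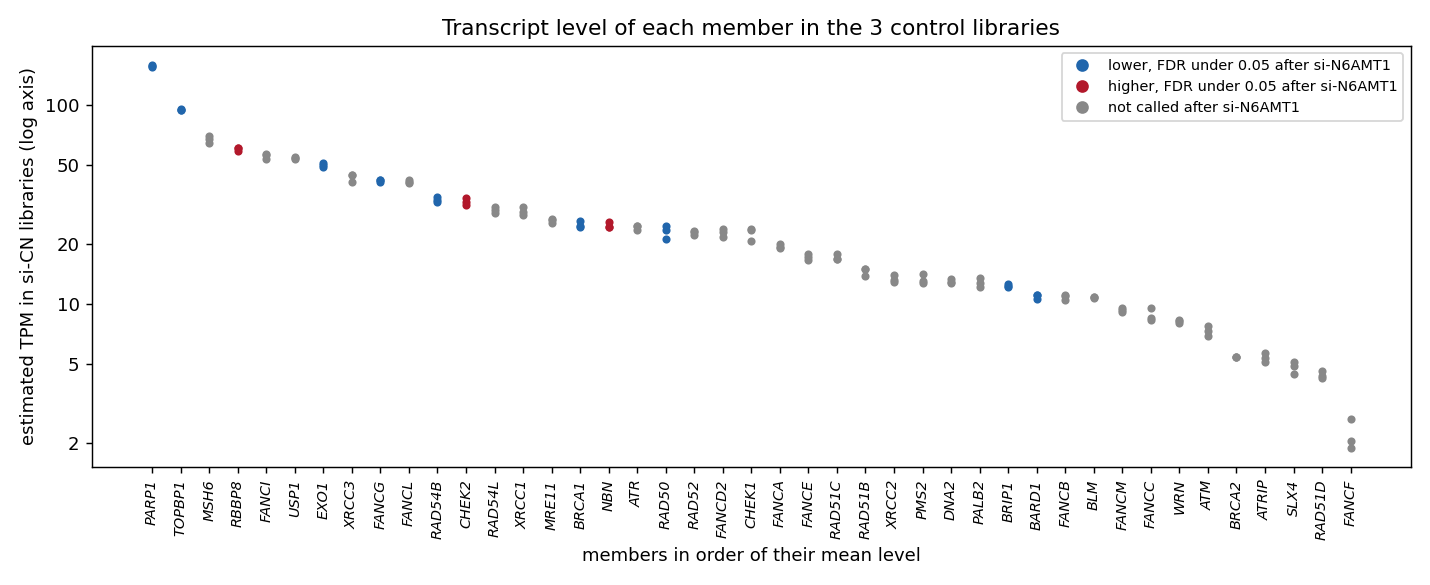
Estimated TPM (log axis) of each member in the 3 si-CN libraries, in order of the mean, with one point per library. Colours mark the outcome after si-N6AMT1, and levels run from PARP1 at 157 TPM to FANCF at 2.20 TPM. Called members lie above the median of 22.7 TPM except BRIP1 and BARD1, and none ranks below BARD1 at 10.9 TPM. Small changes are harder to call in members with few counts.

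Of the 6 checkpoint kinases and partners, 1 was lower and 1 was higher. TOPBP1 was at 226, 234 and 228 CPM in si-N6AMT1 and at 246, 243 and 244 CPM in si-CN. All si-N6AMT1 values were the lower ones, for a log2 fold change of -0.09 (SE 0.0230, FDR = 0.00561), a small difference between tight groups. CHEK2, the effector kinase downstream of ATM, was at 31.3, 29.7 and 30.6 CPM against 26.5, 26.9 and 27.9 CPM. It was higher in every si-N6AMT1 library (log2 fold change 0.17, SE 0.0484, FDR = 0.0139). That call was lost without si-N6AMT1 replicate 1 (FDR = 0.0523), without si-CN replicate 1 (FDR = 0.0517) and in DESeq2 on all genes (adjusted p = 0.152). CHEK1, its counterpart downstream of ATR, stood at 96.7% of control (FDR = 0.536), and ATM at 97.8% (FDR = 0.682). ATR lay just outside the threshold (85.1, 85.3 and 81.9 against 87.6, 89.8 and 90.1 CPM, FDR = 0.0508). Its groups did not overlap, and without si-CN replicate 1 it passed (FDR = 0.0479). ATRIP, the ATR partner, shares 1448 exon bases with the nuclease gene TREX1 on the same strand, so its counts (log2 fold change 0.11, not called) are uncertain. TREX1 itself was higher (log2 fold change 0.33, FDR = 0.00634), and the summed level of the 2 genes, chosen after the values were seen, was 25.9, 26.4 and 25.8 CPM in si-N6AMT1 and 24.2, 21.4 and 21.4 CPM in si-CN. The sums did not overlap (two-sided exact permutation p = 0.1, the smallest possible).

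Among the 8 genes of break recognition and end resection, 2 were lower and 2 were higher, and the 3 subunits of the MRE11 complex had different values. NBN, the subunit that recruits ATM, was at 58.5, 59.9 and 57.0 CPM in si-N6AMT1 and at 51.0, 50.4 and 53.0 CPM in si-CN. Every si-N6AMT1 library was above every control, with a log2 fold change of 0.18 (SE 0.0371, FDR = 0.000864). RAD50, the ATPase that tethers DNA ends, was at 70.2, 84.6 and 77.6 CPM against 88.7, 78.7 and 90.6 CPM. Its groups overlapped, and the fitted log2 fold change was -0.15 (SE 0.0518, FDR = 0.0407). The RAD50 call was lost without si-N6AMT1 replicate 1 (FDR = 0.264) or 3 (FDR = 0.0963) and without si-CN replicate 1 (FDR = 0.116) or 3 (FDR = 0.232). MRE11, the nuclease, was at 82.3, 76.0 and 79.6 CPM against 80.0, 81.7 and 80.8 CPM and was not called (FDR = 0.625).

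RAD50 is an uncertain gene in these counts, since ENSG00000283782 covers 8124 of its exon bases on the same strand and kallisto divides reads between such genes by an estimate. That gene held 32.8, 10.5 and 18.7 CPM in si-N6AMT1 and 19.1, 26.7 and 16.7 CPM in si-CN, and it was high where RAD50 was low. Summed, the 2 genes were at 103, 95.2 and 96.3 CPM in si-N6AMT1 and at 108, 105 and 107 CPM in si-CN. The sums did not overlap (mean 98.2 ± 4.28 against 107 ± 1.32 CPM, SD, n = 3, two-sided exact permutation p = 0.1, the smallest that 3 against 3 allows). The sum was chosen after the values were seen.

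The ratio of one member to another within a library does not depend on library scaling. The log2 count ratio of NBN to RAD50 was -0.26, -0.50 and -0.44 in si-N6AMT1 and -0.80, -0.64 and -0.77 in si-CN. All 3 si-N6AMT1 ratios were higher, by 0.34 on average. The ratio of NBN to MRE11 was higher by 0.21, also without overlap. Each gave a two-sided exact permutation p of 0.1, the smallest possible with 3 against 3, and 0.125 after Benjamini-Hochberg adjustment over the 5 ratios compared, which were chosen after the values were seen. NBN and RAD50 had been called in opposite directions before they were paired, so the direction of their ratio followed from that choice. The counts of RAD50 are uncertain, as given above. RAD50 to MRE11 differed by -0.12 with overlapping groups (exact permutation p = 0.6, adjusted p = 0.6). CHEK2 to CHEK1 was higher by 0.22 without overlap (exact permutation p = 0.1, the smallest possible, adjusted p = 0.125). The directions of this ratio and of NBN to MRE11 also followed from fold changes already seen.

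The exonuclease gene EXO1, which lengthens the resected stretch, was at 65.4, 69.2 and 67.2 CPM against 78.3, 74.7 and 78.7 CPM. It was lower in every si-N6AMT1 library (log2 fold change -0.20, SE 0.0342, FDR = 0.000146). RBBP8, whose product CtIP starts resection with the MRE11 complex, was at 90.6, 96.2 and 97.3 CPM against 87.1, 89.0 and 88.6 CPM. The groups did not overlap, but si-N6AMT1 replicate 1 lay close to the controls (log2 fold change 0.10, SE 0.0318, FDR = 0.0240). RBBP8 was no longer called without si-N6AMT1 replicate 2 (FDR = 0.103) or 3 (FDR = 0.129), without si-CN replicate 1 (FDR = 0.0763) or 3 (FDR = 0.0593) and in DESeq2 on all genes (adjusted p = 0.158). The BLM helicase, at 23.2, 23.4 and 22.1 CPM against 25.7, 25.2 and 25.1 CPM, lay just outside the threshold without overlap (log2 fold change -0.15, FDR = 0.0509). With a stricter filter of at least 50 counts in 3 libraries, BLM (FDR = 0.0414) and ATR (FDR = 0.0469) were called, which made 11 members lower. DNA2 and the WRN helicase had log2 fold changes of -0.11 and -0.07 and were not called.

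**Figure D3:**
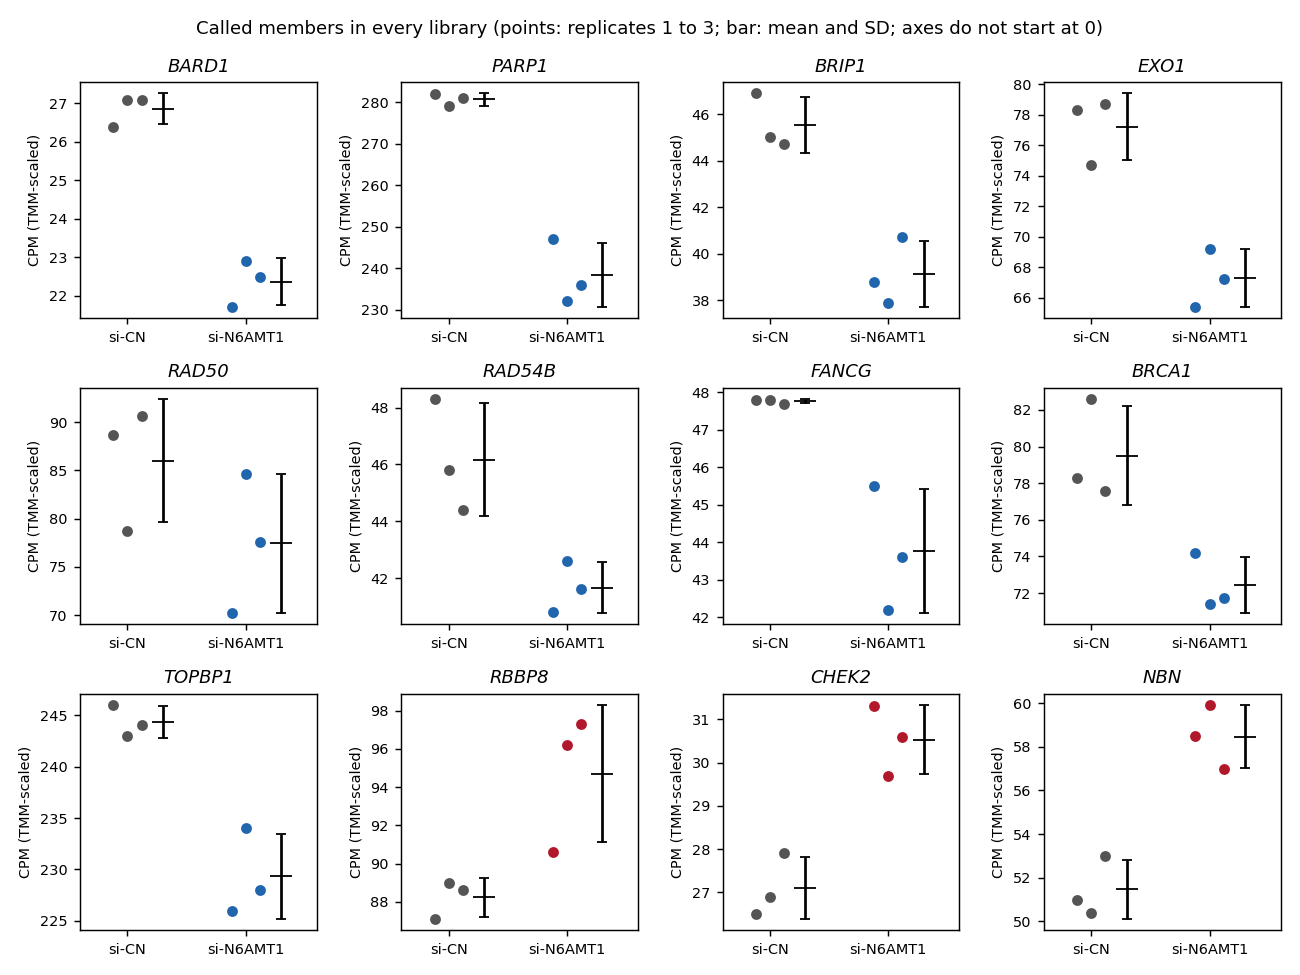
TMM-scaled CPM of the 12 called members in each library, with grey points for si-CN and coloured points for si-N6AMT1 (blue lower, red higher), and bars for the mean and SD of 3 libraries. The axes do not start at 0, and the groups are apart in every panel except RAD50.

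Of the 12 homologous recombination mediators, 3 were lower (25%) and 0 were higher in edgeR, with 0 higher also at an unadjusted p under 0.05, in DESeq2 and in limma-voom. The shares of all genes tested were 11.5% lower and 9.78% higher. BARD1, the obligate partner of BRCA1 in its ubiquitin ligase, was at 21.7, 22.9 and 22.5 CPM in si-N6AMT1 and at 26.4, 27.1 and 27.1 CPM in si-CN. The gap between the groups was wider than the spread within either, and at a log2 fold change of -0.26 (SE 0.0520, FDR = 0.000668) BARD1 had the lowest value of the 43 genes. BRCA1 was at 74.2, 71.4 and 71.7 CPM against 78.3, 82.6 and 77.6 CPM. It was lower in every si-N6AMT1 library, at 91.1% of control (log2 fold change -0.13, SE 0.0337, FDR = 0.00552), and in DESeq2 on all genes its adjusted p was 0.0558. The log2 ratio of BARD1 to BRCA1 differed by -0.13 (exact permutation p = 0.1, the smallest possible, adjusted p = 0.125). This ratio too was chosen after the values were seen, so its direction followed from the 2 fold changes and is no separate result. RAD54B, a DNA translocase of recombination, was at 40.8, 42.6 and 41.6 CPM against 48.3, 45.8 and 44.4 CPM. The groups did not overlap (log2 fold change -0.15, SE 0.0420, FDR = 0.0140), although the call was lost without si-N6AMT1 replicate 1 (FDR = 0.0570) and without si-CN replicate 1 (FDR = 0.0867), and in DESeq2 on all genes (adjusted p = 0.121). RAD54B shares 3511 exon bases with FSBP on the same strand, which had a log2 fold change of -0.12 (FDR = 0.171), and their summed level was 64.9 ± 1.36 against 71.4 ± 2.82 CPM (SD, n = 3, two-sided exact permutation p = 0.1, the smallest possible, 3 such sums compared). The other mediators were not called: BRCA2 stood at 93.6% of control with no overlap (FDR = 0.180), PALB2, which links BRCA1 to BRCA2, at 98.7% (FDR = 0.883), and the paralogs RAD51B, RAD51C, RAD51D, XRCC2 and XRCC3 between -0.14 and 0.06 on the log2 scale.

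Of the 13 genes of the Fanconi anaemia pathway, 2 were lower (15.4%) and 0 were higher in edgeR, again with 0 higher at an unadjusted p under 0.05, in DESeq2 and in limma-voom. With 11.5% of all genes tested lower and 9.78% higher, a difference of so short a list from these shares was not tested. BRIP1, a helicase that binds BRCA1, was at 38.8, 37.9 and 40.7 CPM in si-N6AMT1 and at 46.9, 45.0 and 44.7 CPM in si-CN. All si-N6AMT1 values lay below the controls (log2 fold change -0.22, SE 0.0420, FDR = 0.000506). FANCG, a subunit of the core complex, was at 45.5, 42.2 and 43.6 CPM against 47.8, 47.8 and 47.7 CPM. The controls were nearly equal and the si-N6AMT1 values lower (log2 fold change -0.13, SE 0.0399, FDR = 0.0248). FANCG kept its call in 1 of the 6 fits that left out a library and lost it without si-N6AMT1 replicate 2 (FDR = 0.132) or 3 (FDR = 0.0716) and without si-CN replicate 1 (FDR = 0.0536), 2 (FDR = 0.0621) or 3 (FDR = 0.0645). FANCM, the translocase that anchors the core complex, was at 27.7, 28.1 and 27.3 CPM against 29.8, 30.3 and 29.8 CPM. It did not pass although the groups were apart (log2 fold change -0.11, FDR = 0.0950). The central pair FANCD2 and FANCI, which the pathway ubiquitinates, were at -0.06 and -0.03, and USP1, which removes that ubiquitin, at -0.02. FANCL, the ligase subunit, was above control in all 3 libraries but not called (log2 fold change 0.08, FDR = 0.249).

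Among the 4 mismatch and single-strand break repair genes, PARP1 was lower and the other 3 were not called. It was at 247, 232 and 236 CPM in si-N6AMT1 and at 282, 279 and 281 CPM in si-CN. The highest si-N6AMT1 library was far under the lowest control, and PARP1 fell to 84.9% of control (log2 fold change -0.24, SE 0.0245), with the lowest FDR of the members (2.01e-07). XRCC1, the scaffold that PARP1 recruits, had a log2 fold change of -0.04 and was not called. MSH6 was at 122, 121 and 125 CPM against 131, 133 and 122 CPM. Its si-CN replicate 3 lay within the si-N6AMT1 range, and among the alternatives run it was called only when that library was left out (FDR = 0.128 with it and 0.0228 without). PMS2 (log2 fold change 0.03) has 11 copies by name with up to 186 counts, so its counts are uncertain.

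For the 31 members that were not called, the 95% intervals of the fold change ran from 80.7% to 131% of control, and to 121% without FANCF, the gene with the lowest level. Changes beyond these bounds lie outside the intervals, and smaller changes in these members may have been missed. At an unadjusted p under 0.05, 4 of the 31 passed (ATR, BLM, FANCM and MSH6). Exon bases are shared with another gene by 29 of the 43 members, 24 of them with a gene on the opposite strand, and 8 have a copy by name. Besides those described above, this holds to differing degrees for ATM, ATR, CHEK1, MRE11, RBBP8, BLM, WRN, BRCA1, PALB2, RAD51B, RAD51D, XRCC3, RAD52, RAD54L, FANCA, FANCB, FANCC, FANCF, FANCL, FANCD2, FANCI, SLX4, MSH6 and XRCC1. Neighbours or copies of MRE11 held at most 2 counts in a library, and those of RBBP8, SLX4 and XRCC1 at most 1, which leaves little to confuse. Counts are less certain beside abundant neighbours, such as KLC1 at XRCC3 (3116 to 3519 counts) and FBXO11 at MSH6 (1522 to 1624). The 2 copies of PARP1 held at most 1 count in any library. The kit keeps strand, but the strand setting of the count step is not given in the sources used here. Among the called members, CHEK2 overlaps HSCB and NBN overlaps OSGIN2 on the opposite strand. RAD50 overlaps TH2LCRR (5 to 13 counts) and BRCA1 overlaps RPL21P4 (at most 2 counts) there too. On its own strand BRCA1 shares 120 exon bases with ENSG00000267002, which held 467 to 536 counts and did not change (log2 fold change 0, FDR = 0.967). HSCB (log2 fold change 0.27, FDR = 0.130) and OSGIN2 (0.06, FDR = 0.272) were not called.

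PARP1, EXO1, BRIP1, BARD1 and NBN were called under all 15 alternative settings, and TOPBP1 and BRCA1 under 14. CHEK2 was called under 11, RAD54B under 10, RBBP8 under 9, FANCG under 8 and RAD50 under 7. DESeq2 on all genes with a count called 5 members lower and 1 higher, the higher one being NBN.

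The rest of the repair machinery was read from a list of 109 further genes, of which 108 were tested. Of these, 17 were lower (15.7%) and 8 were higher (7.41%), with a median log2 fold change of -0.02. End joining, the repair route that needs no intact copy, had 4 lower and 2 higher of 11. PRKDC, the catalytic subunit of DNA-PK, fell by 0.31 on the log2 scale (FDR = 2.57e-08) and its partner XRCC5 (Ku80) by 0.12 (FDR = 0.000555), while XRCC4, the scaffold of the ligase, rose by 0.24 (FDR = 0.000502) and the polymerase gene POLL by 0.22 (FDR = 0.0161). Among 13 checkpoint clamp, adaptor and effector genes, 3 were lower and 2 were higher. CLSPN, which brings CHEK1 to ATR, had a log2 fold change of -0.23 (FDR = 0.000539) and the fork protein gene TIPIN one of -0.25 (FDR = 0.0151), against 0.18 for the phosphatase gene CDC25B (FDR = 9.05e-06) and 0.16 for the clamp loader gene RAD17 (FDR = 0.0177). Nucleotide excision repair had 3 lower and 0 higher of 15 (0 higher also at an unadjusted p under 0.05 and in DESeq2 and limma-voom), with DDB1 at -0.11 (FDR = 0.00104) and DDB2 at -0.12 (FDR = 0.00970), the subunits of the complex that recognises ultraviolet damage.

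Base excision repair had 1 lower and 1 higher of 20 (5% each, beside 11.5% lower and 9.78% higher of all genes tested). These were 2 glycosylases that remove uracil, UNG at -0.30 (FDR = 9.32e-06) and SMUG1 at 0.22 (FDR = 0.00700). Of the 14 genes of the chromatin response at breaks, BRCC3 (log2 fold change -0.20, FDR = 0.0195) and SHLD2 (-0.13, FDR = 0.0480) were lower and 0 were higher (1 at an unadjusted p under 0.05, 0 in DESeq2 and limma-voom). Of 4 other mismatch repair genes tested, MSH3, the partner that replaces MSH6 for longer loops, was lower (-0.25, FDR = 0.00485) and the rest were not called. The 31 other Fanconi, nuclease and helicase genes had 3 lower and 3 higher (9.68% each), near the shares of all genes. RECQL (-0.15, FDR = 0.000154) and RMI1, a partner of BLM (-0.22, FDR = 0.00567), were lower, and the helicase gene RECQL5 (0.24, FDR = 0.00150) and SFR1 (0.31, FDR = 0.00406) were higher.

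Both lists of cell cycle markers had lower medians than the repair genes. Of 25 S phase markers, 14 were lower and 1 was higher, with a median log2 fold change of -0.14. CDC6, the origin licensing factor, fell by 0.46 (FDR = 1.44e-11) and UHRF1, which copies DNA methylation, by 0.34 (FDR = 6.97e-08), while RFC4 of the clamp loader was higher by 0.14 (FDR = 0.0104). Of 25 G2 and M phase markers, 16 were lower and 0 were higher in edgeR (0 also at an unadjusted p under 0.05 and in DESeq2 and limma-voom), with a median of -0.10, led by CENPF (-0.22, FDR = 5.44e-06) and MKI67 (-0.17, FDR = 1.21e-05). The S phase list held 0.241 to 0.245% of counts in si-N6AMT1 and 0.263 to 0.266% in si-CN, and the G2 and M list 0.310 to 0.313% and 0.330 to 0.332%. Neither pair of ranges overlapped, and the part of cell cycle state in the members' values was not tested.

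Genes that DNA damage is known to induce went both ways, with 5 lower and 3 higher of 16 tested and a median of 0.01. These were 31.2% lower and 18.8% higher, beside 11.5% and 9.78% of all genes tested, a difference that was not tested. The list held 0.0714 to 0.072% of counts in si-N6AMT1 and 0.07 to 0.0704% in si-CN, without overlap, a sum weighted towards its abundant genes. SESN2, a stress-induced regulator of growth signalling, had a log2 fold change of 0.42 (FDR = 2.97e-07) and PHLDA3 one of 0.21 (FDR = 9.41e-06), against -0.30 for the death receptor gene FAS (FDR = 4.47e-05) and -0.23 for GADD45B (FDR = 4.92e-05).

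**Figure D4:**
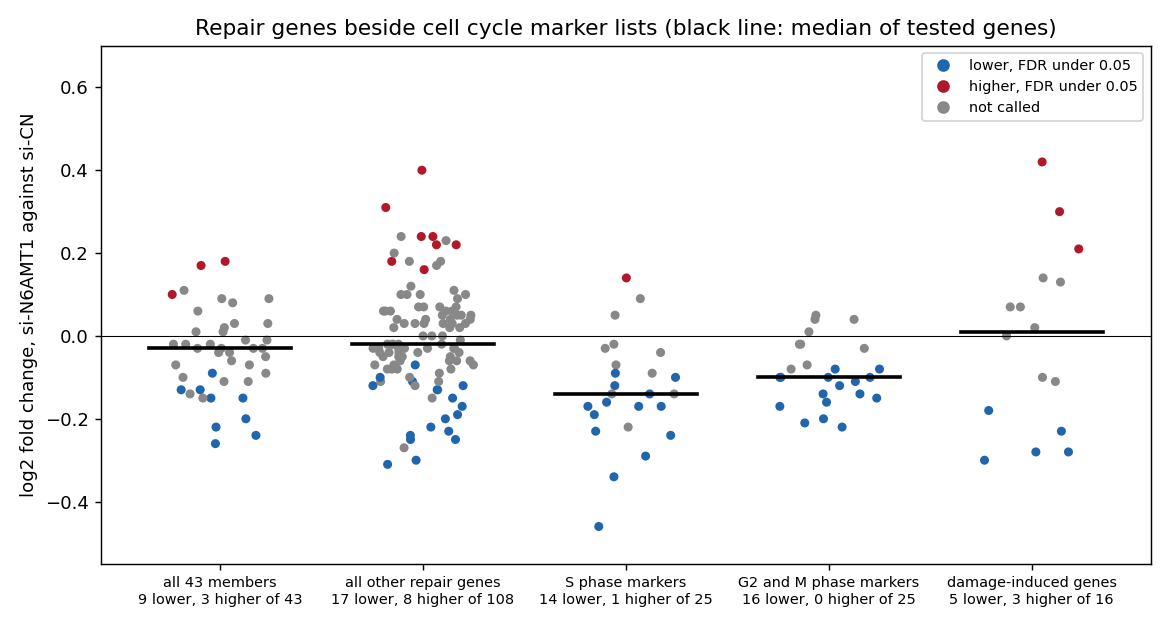
Log2 fold change of si-N6AMT1 against si-CN (y axis) for each tested gene of 5 lists, with one point per gene and a black line at the list median. The members (-0.03) and the other repair genes (-0.02) lie around 0, with the S phase markers (-0.14) and G2 and M phase markers (-0.10) lower.

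An siRNA can also lower transcripts that match its seed in their 3′ untranslated region (UTR), so the members' UTRs were searched. Over 13160 protein-coding genes and all 16384 sequences of 7 bases, TTCACAT was the one most associated with a lower log2 fold change (t = -11.57), with TCACATA, shifted by 1 base, at -10.9. One of these sites, or the 8-base TTCACATA that holds both, was found in 22.5% of all tested UTRs, in 44.2% of genes called lower and in 11.9% of genes called higher. The sequence was picked by these same fold changes, so the direction of the difference between these shares follows from that choice and is no separate result. In the same scan the strongest sequence in the upward direction reached t = 4.28, and the SD of t over all 7-base sequences was 1.15. The shares were not adjusted for UTR length. Among the members 5 of 43 held one (11.6%), and among the 9 called lower 1 did, BARD1. The S phase markers held it in 2 of 25, the G2 and M markers in 3 of 25 and the other repair genes in 16 of 107 (15.0%). The siRNA sequence was not used here, and the part of such sites in any value was not tested. The 5 sites are shown 5′ to 3′ on the gene's strand, with the matching bases in capitals, to show which members hold one. They lie in the 3′ UTR exons at chr2:215593307-215593335 (BARD1, minus strand), chr11:108237677-108237705 (ATM, plus), chr11:125526329-125526357 (CHEK1, plus), chr10:70174110-70174139 (DNA2, minus) and chr7:6012286-6012314 (PMS2, minus) of GRCh37.
BARD1: tgtttttaatgTTCACATttttacaaata
ATM: acagcatcagcTCACATAttcacctctct
CHEK1: attagagtttaTCACATAttaatgtatac
DNA2: tgattcctattTTCACATAtgttcatatgc
PMS2: ctcagccctgaTTCACATtaaatttttaa

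Of these, BARD1 was called lower (-0.26), and its site begins at base 76 of a UTR of 3030 bases. DNA2, with the 8-base site, had a log2 fold change of -0.11, CHEK1 one of -0.05, ATM one of -0.03 and PMS2 one of 0.03, none of them called. PARP1, EXO1, BRIP1, BRCA1, TOPBP1, RAD54B, FANCG and RAD50 were called lower with no such site in the UTR searched.

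E2F factors drive many genes of DNA replication, so promoters (250 bases before to 50 after the gene start, RefSeq, GRCh38.p14) were searched on both strands for TTTGGCGC, TTTCGCGC or TTTCCCGC. A promoter was matched for 38 of the 43 members. A motif was present in 6 of these 38 (15.8%), in 5.35% of the 11714 tested genes with a promoter, in 3.3% of all 27305 genes with one and in 14 of 21 S phase markers (66.7%). Among the members called lower it was present in 2 of 8, EXO1 and TOPBP1, and among those not called in 4 of 28, MSH6, FANCD2, XRCC2 and FANCC. Windows of the 2 lower members and of 3 that were not called are shown for comparison, 5′ to 3′ on the gene's strand with the motif in capitals. They lie at chr1:241848197-241848226 (EXO1, plus), chr3:133661930-133661959 (TOPBP1, minus), chr2:47783137-47783166 (MSH6, plus), chr3:10026424-10026453 (FANCD2, plus) and chr7:152676102-152676131 (XRCC2, minus).
EXO1: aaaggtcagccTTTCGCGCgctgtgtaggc
TOPBP1: ccgcgcggttgGCGCGAAAgtcggttcccg
MSH6: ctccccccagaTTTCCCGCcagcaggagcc
FANCD2: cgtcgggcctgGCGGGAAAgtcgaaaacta
XRCC2: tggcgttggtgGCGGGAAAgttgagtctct

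EXO1 (-0.20) and TOPBP1 (-0.09) were called lower, and MSH6 (-0.07), FANCD2 (-0.06) and XRCC2 (0.06) were not called. The motif of TOPBP1 starts 7 bases before the first transcribed base and that of EXO1 4 bases after it. Searched in the same way on both strands, the CHR motif TTTGAA of G2 and M phase genes was present in 5 of 38 members (13.2%), beside 14.1% of the promoters of tested genes, 18.2% of all promoters and 15 of 20 G2 and M phase markers (75.0%). CCAAT boxes (CCAAT) were present in 18 of 38 members (47.4%), beside 5033 of the 11714 tested genes with a promoter and 39.7% of all promoters. A match is a description of the letters and not a bound site.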

How the data were processed

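RNA was read from 3 si-N6AMT1 and 3 si-CN libraries. The authors trimmed reads with Trim Galore, estimated transcript counts with kallisto 0.46.0 and the GENCODE annotation of hg19 and summed them per gene. They deposited estimated counts as whole numbers, without normalization. All columns matched a sample by name (0 unmatched). Genes were kept by edgeR's filter with a minimum count of 10 (17320 genes), scaled by TMM and tested with edgeR 4.0.16 (R 4.3.3) in a quasi-likelihood fit without covariates, with Benjamini-Hochberg adjustment over all genes and a threshold of 0.05. The SE was taken from the fold change and its F value, and CPM were scaled by TMM. TPM were estimated from the length of one reference transcript, and overlaps and UTRs came from a GENCODE annotation of GRCh37 that need not be the authors' release. The test was checked on simulated data with changes larger than those of the members, so that check does not cover changes as small as theirs.

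Alternatives were DESeq2 1.42.0, limma 3.58.1 (voom), RLE factors, other count filters, a replicate block with and without a GC correction, mitochondrial genes left out and each library left out. Called members were named with values in every library, with the 3 next by FDR. Up to 2 genes per direction were named from other lists, and members with UTR sites or overlapping genes were named too. Members and lists were chosen with earlier results of these data known. Counts of overlapping or copied genes are uncertain, and intervals cover the spread between these libraries only. One cell type marker is not reported here.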

Additional observations from a re-analysis of the deposited data

How the results depend on the processing

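None of the 12 called members, nor N6AMT1, changed direction under the 15 alternatives. DESeq2 on all genes with a count called 5 members lower and 1 higher, 6 other repair genes lower and 3 higher, and 10 G2 and M phase markers lower. Restricted to genes at 1 TPM or more, DESeq2 called 6 members lower and 1 higher, 8 other repair genes lower and 4 higher, and 10 G2 and M phase markers lower. Over all genes, edgeR called 1993 lower and 1694 higher, and DESeq2 called 1136 and 796 on all genes and 1239 and 930 on the restricted genes. Leaving out one library gave 7 to 8 members lower and 1 to 3 higher, with 1 without si-CN replicate 1. It gave 10 to 15 other repair genes lower, with 11 without si-N6AMT1 replicate 3 and 10 without si-CN replicate 3. N6AMT1 ran from -1.18 to -1.04 in those fits. The stricter filter, at least 50 counts in 3 libraries, called 11 members lower and 3 higher.

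The replicate numbers did not pair the libraries, since same-numbered libraries correlated at -0.038, -0.042 and 0.010 in their deviations from the group means. With the replicate block, 9 members were lower and 3 were higher. With the block and a GC correction, 6 members were lower and 3 were higher, TOPBP1, RAD50 and RAD54B being lost, and 10 G2 and M phase markers were lower. With 3 libraries a group and changes this small, calls near the threshold depend on single libraries.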
